A study of Rattus norvegicus with 6 samples.

Results

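Slc7a13, Agt, Slco1a1, Slco1a6, Slc22a7, Apoh and Gclc are 7 genes of the rat renal cortex that were chosen by their measured values: their signal differed widely between kidneys of control rats, and Slc7a13 and the organic anion carriers among them are typical of the proximal tubule's straight segment. All 7 were found among the 15645 genes with a symbol on the array, where they were read by 10 of 61537 probes. The kidneys came from 6 male Sprague-Dawley rats, bought at 5 weeks of age. For 4 weeks, 3 rats were given water and 3 were given potassium bromate, an oxidising salt that injures the proximal tubule, at 100 mg/kg/day. Total RNA of the renal cortex of each animal was read on 1 single-colour Agilent array. Each level is given as a log2 signal after the array's own 75th percentile was subtracted, so that 1 unit is a doubling, and levels of different genes are not compared because each probe binds with its own strength.

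The proximal tubule reabsorbs most of the filtered amino acids, glucose and phosphate in its convoluted part. Its straight part runs down the medullary rays of the cortex into the outer stripe of the medulla, and carries its own amino acid and organic anion carriers, several of which are known in rodents to depend on sex hormones. In RNA from whole tissue, fewer cells of a type and less RNA per cell cannot be told apart.

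Between 57.9% and 63.1% of the probes on an array were well above background, and no probe was saturated. Among the arrays of this study, only water replicate 1 was on slide 1, and the other 5 shared slide 2. The scan divided the arrays in the same way, with scan 1 for water replicate 1 and scan 2 for the other 5. Slide, scan and water replicate 1 therefore cannot be told apart. Over all probes the arrays correlated at 0.983 to 0.992 within water, 0.988 to 0.991 within bromate and 0.966 to 0.978 between the groups. Of 27506 genes tested, limma called 3979 (14.5%) at a Benjamini-Hochberg adjusted p under 0.05. Among these 27506, 11572 had a symbol, and the rest were array entries without one, which can be further probes of named genes. Of the genes tested, 1891 (6.87%) were called higher and 2088 (7.59%) lower in bromate, and the median difference over all genes was -0.02. Tubule injury markers separated the groups: Havcr1, the kidney injury molecule, rose by 8.11 ± 0.35 (limma log2 difference ± SE, n = 3 and 3, adjusted p = 0.000743), with water replicate 3 not well above background, and Spp1, osteopontin, rose by 4.82 ± 0.09 (adjusted p = 0.000122).

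Promoters are shown for the 3 organic anion carriers among the 7 genes, of which Slco1a1 and Slco1a6 are of the same family. The RefSeq promoter table for build GRCr8, with 250 bases before and 50 after each gene's start, held 5 of the 7 genes; Slc7a13 and Agt were not among them. Each sequence is written 5′ to 3′ on the gene's strand. Capitals mark a match on either strand to the HNF4 core CAAAG or to the androgen receptor half-site AGAACA. Slco1a1 lies at chr4:176681943-176682242 on the minus strand, Slco1a6 at chr4:176838983-176839282 on the minus strand and Slc22a7 at chr9:22045248-22045547 on the plus strand.
Slco1a1: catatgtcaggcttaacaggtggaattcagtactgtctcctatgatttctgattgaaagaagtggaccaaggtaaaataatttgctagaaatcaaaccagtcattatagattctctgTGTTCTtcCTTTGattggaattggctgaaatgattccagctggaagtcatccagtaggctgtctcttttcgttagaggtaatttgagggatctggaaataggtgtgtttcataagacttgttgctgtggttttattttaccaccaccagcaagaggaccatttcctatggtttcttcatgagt
Slco1a6: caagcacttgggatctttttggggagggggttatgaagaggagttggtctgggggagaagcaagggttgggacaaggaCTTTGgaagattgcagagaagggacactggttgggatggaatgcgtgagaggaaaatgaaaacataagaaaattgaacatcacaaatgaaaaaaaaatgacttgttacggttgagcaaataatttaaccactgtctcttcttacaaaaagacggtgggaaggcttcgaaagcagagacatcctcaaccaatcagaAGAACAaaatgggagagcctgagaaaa
Slc22a7: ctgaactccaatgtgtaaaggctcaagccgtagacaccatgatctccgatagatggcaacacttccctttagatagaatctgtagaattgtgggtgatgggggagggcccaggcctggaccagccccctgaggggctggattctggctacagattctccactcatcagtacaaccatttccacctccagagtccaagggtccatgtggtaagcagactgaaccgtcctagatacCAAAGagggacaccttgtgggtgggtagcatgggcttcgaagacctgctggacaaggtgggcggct
Slco1a1 and Slco1a6 each held both motifs, and Slc22a7 held CAAAG alone. CAAAG was found in 4 of the 5 promoters, Apoh included, against 53.8% of 33469 promoters of the same length, and AGAACA was found in 2 of 5 against 20.7%. The antioxidant response core TGACNNNGC (12.1% of promoters) and the HNF1 half-site GTTAAT (7.45%) were in none of the 5. CAAAG and AGAACA matches did not overlap in these windows, and a match of so few letters is a description of the sequence and not a binding site.

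Slc7a13 is an acidic amino acid and cystine carrier of the straight tubule, and works as a pair with the product of Slc3a1. In the water rats, numbered 1 to 3, it read 7.61, 4.83 and 2.54, and in the bromate rats, numbered likewise, 1.72, -0.61 and 2.01. All water arrays lay above all bromate arrays, and water replicate 3 lay closer to bromate replicates 1 and 3 than to water replicate 2. The means were 4.99 ± 2.54 in water and 1.04 ± 1.43 in bromate (SD, n = 3), a 15.5-fold lower level in bromate. The range over the 3 water arrays, 33.6-fold, was wider than that.

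The organic anion carriers had the same order among the water arrays as Slc7a13, and likewise their lowest level on bromate replicate 2. Slco1a1, a sodium-independent carrier of organic anions and steroid conjugates, read 3.53, 1.15 and -2.51 in water and -1.03, -2.54 and -1.77 in bromate. Water replicate 3 lay among the bromate arrays, at the level of the lowest of them, and the 65.7-fold range in water was far wider than the 2.85-fold range in bromate. Slco1a6, a neighbouring member of the same family, read 2.76, 0.07 and -2.78 in water and -3.36, -6.90 and -4.27 in bromate. Here the groups did not overlap, and bromate replicate 2 was not well above background. Slc22a7, the organic anion transporter OAT2, read 0.83, -2.71 and -5.06 in water and -3.54, -6.24 and -3.37 in bromate. Water replicate 3 and bromate replicate 2 were not well above background for Slc22a7, and water replicate 3 lay below bromate replicates 1 and 3.

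Agt and Apoh encode secreted plasma proteins that the liver makes in bulk and the tubule also transcribes. Agt, angiotensinogen, the precursor of the angiotensins, read 4.19, 0.71 and -2.06 in water and 0.74, -2.38 and 0.16 in bromate. Its 76.2-fold range was the widest in water of the 7 genes, and water replicate 2 was level with bromate replicate 1 while water replicate 3 lay below bromate replicates 1 and 3. Apoh, β2-glycoprotein I, read -0.79, -2.38 and -3.18 in water and -3.53, -5.65 and -4.42 in bromate, with bromate replicate 2 not well above background. Its water range was the narrowest of the 7 genes, 5.21-fold, and its groups did not overlap.

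Gclc, the catalytic part of glutamate-cysteine ligase, is the first enzyme of glutathione synthesis and is not a marker of one tubule segment. Its level was 8.02, 6.18 and 3.99 in water and 4.89, 3.28 and 4.62 in bromate. Water replicate 3 lay below bromate replicates 1 and 3, and the range in water was 16.4-fold against 3.05-fold in bromate.

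**Figure D1:**
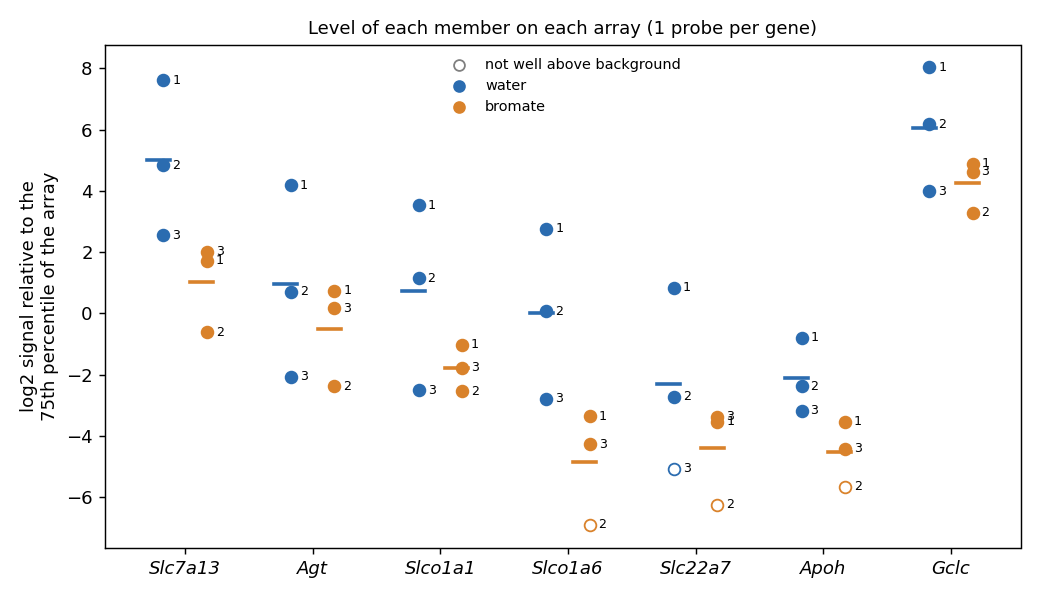
Log2 signal relative to the 75th percentile of the array (vertical axis) for each of the 7 genes on each array, with replicate numbers beside the points, short lines for group means and open circles for arrays on which the probe was not well above background. In every gene water replicate 1 was highest and bromate replicate 2 lowest, and only Slc7a13, Slco1a6 and Apoh had no overlap between the groups.

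The 7 genes shared their order within water and their lowest array. Water replicate 1 was above replicate 2, and replicate 2 above replicate 3, in 7 of 7; over all genes 18.2% had this order. Bromate replicate 2 was the lowest of all 6 arrays in 7 of 7, while 18.3% of all genes had it as the lowest of the 6 and 34.8% as the lowest of the bromate arrays. The genes divided on water replicate 3, which lay above all bromate arrays in Slc7a13, Slco1a6 and Apoh and below bromate replicates 1 and 3 in the other 4. They also divided at the top of the bromate group, where replicate 1 was highest in 5 and replicate 3 in Slc7a13 and Slc22a7, with gaps between these 2 arrays of -0.29 to 0.92. Because the genes were chosen for such a spread, these counts describe the choice.

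The steps between rats differed in size from gene to gene. Water replicate 1 exceeded replicate 2 by 1.59 (Apoh) to 3.55 (Slc22a7), with a median of 2.69. Water replicate 2 exceeded replicate 3 by 0.79 (Apoh) to 3.65 (Slco1a1), with a median of 2.35. In bromate, replicate 1 exceeded replicate 2 by 1.51 (Slco1a1) to 3.54 (Slco1a6, with replicate 2 not well above background). The SD in water was larger than the SD in bromate in 7 of 7 genes.

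Set against all 27506 genes, with or without a symbol, the median range over the water arrays was 0.28 and the 99th percentile 2.56. Only 480 genes (1.75%) varied at least 4-fold among the water rats, and the 7 genes had to be among the widest by the way they were chosen. Agt ranked 9, Slco1a1 15, Slc22a7 17, Slco1a6 25, Slc7a13 39, Gclc 76 and Apoh 328 by that range. The rank of Slc22a7 rests on a water array not well above background. By the range over the bromate arrays, which runs over other animals, Agt ranked 124, Slc7a13 204, Gclc 721 and Slco1a1 833, and no rank is given for the other 3, whose lowest bromate array was not well above background. The bromate ranges of the 4 ranked genes ran from 1.51 to 3.12, against a 95th percentile over all genes of 1.23.

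**Figure D2:**
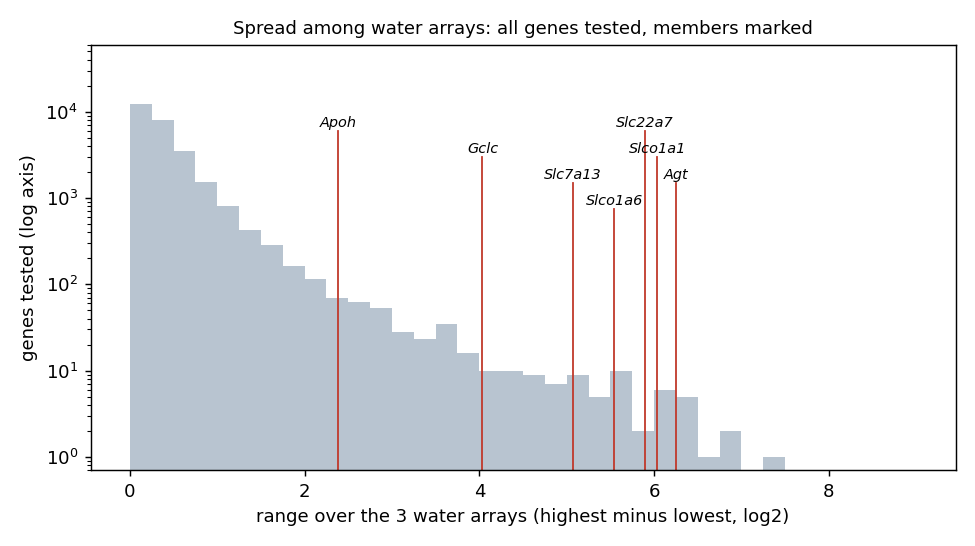
Number of tested genes (vertical log axis) by the range over the 3 water arrays in log2 units (horizontal axis), with a line at the range of each of the 7 genes. Apoh lies at 2.38 and the other 6 genes between 4.04 and 6.25, where few genes remain.

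Second probes were present for Slc7a13, Agt and Gclc. They repeated the order of the arrays in Agt and Gclc, and in Slc7a13 only water replicate 3 and bromate replicate 3 changed places. The second Slc7a13 probe read 4.62, 2.23 and -0.67 in water and -0.98, -3.41 and -0.63 in bromate. On it the groups met, with water replicate 3 just below bromate replicate 3, so the separation of the groups in Slc7a13 held on 1 of 2 probes. The second Agt probe ranged over 6.37 in water and the second Gclc probe over 4.63, and both overlapped between the groups as the first probes did.

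Slco1a1 and Slco1a6 lie on chromosome 4 within a cluster of related carriers, in the order Slco1a4, Slco1a1, Slco1a3, Slco1a6 and Slco1a5. Slco1a3 read 5.48, 3.33 and 0.95 in water and 1.14, -2.30 and 1.15 in bromate. Slco1a5 read 2.00, -0.17 and -2.69 in water and -2.83, -7.12 and -2.72 in bromate, where replicate 2 was not well above background. Both had the water order 1 over 2 over 3 and bromate replicate 2 lowest, with water replicate 3 just below bromate replicates 1 and 3 in Slco1a3 and just above them in Slco1a5. Slco1a4 differed: it read -3.94, -4.20 and -4.37 in water, a range of 0.44, and was not well above background on any bromate array. Slco1a4 was at least 1.58-fold lower in bromate, a bound taken against the lowest signal well above background. It entered the tests through its water arrays alone. Its limma call (adjusted p = 0.0176, lost without water replicate 2) rests on bromate readings not well above background, so it is not read as support. Binding of a probe to RNA of a neighbouring gene of the family was not tested.

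Set against water, the bromate mean was lower in 7 of 7 genes, and limma called none of them at an adjusted p under 0.05, against 14.5% of all genes (7.59% lower and 6.87% higher). At an unadjusted p under 0.05 limma gave 3 of 7, against 32.9% of all genes. The water arrays on which the genes were chosen also set the error of this contrast, so nothing about bromate is read from that count. Slco1a6 differed by -4.86 ± 1.58 (limma log2 difference ± SE, n = 3 and 3, adjusted p = 0.0930), which includes bromate replicate 2 at a signal not well above background. With normexp background correction and quantile scaling it differed by -3.15. Slc7a13 differed by -3.96 ± 1.38 (limma adjusted p = 0.109) and Apoh by -2.41 ± 0.77 (limma adjusted p = 0.0887), or -1.21 under that other scaling. These 3 were the genes without overlap, a separation that 41.0% of all genes had in either direction and 21.5% with bromate lower.

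In the other 4 genes the groups overlapped. Slco1a1 differed by -2.50 ± 1.48 (limma adjusted p = 0.294), Slc22a7 by -2.07 ± 1.60 (limma adjusted p = 0.414; -1.14 under that scaling), Gclc by -1.80 ± 1.04 (limma adjusted p = 0.284) and Agt by -1.44 ± 1.68 (limma adjusted p = 0.592). In each of these 4, water replicate 3 lay below the bromate mean, so that the direction depended on which water rat was the reference. For Agt the bromate mean minus the water array was -4.68 against water replicate 1, -1.20 against replicate 2 and 1.57 against replicate 3. Slco1a6, at the other end, was lower against each water array, at -7.60, -4.92 and -2.06.

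**Figure D3:**
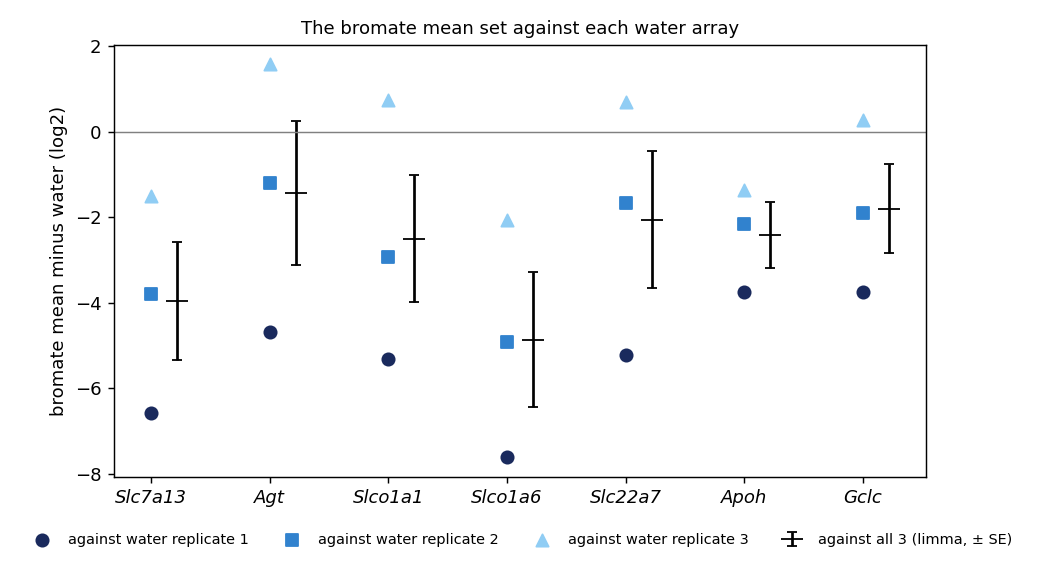
Bromate mean minus each single water array in log2 units (vertical axis; circle, square and triangle for water replicates 1, 2 and 3), with the limma difference against all 3 water arrays and its SE as black bars, for each of the 7 genes. All points are below 0 for Slc7a13, Slco1a6 and Apoh, and the triangle is above 0 for Agt, Slco1a1, Slc22a7 and Gclc.

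Leaving out single arrays moved the differences by large factors. In every one of the 7 genes the difference was farthest below 0 without water replicate 3 and nearest to or above 0 without water replicate 1. For Slc7a13 it ran from -5.18 to -2.65, for Slco1a6 from -6.26 to -3.49 and for Apoh from -2.94 to -1.75. Slco1a1 ran from -4.12 to -1.10, Slc22a7 from -3.44 to -0.49 and Gclc from -2.84 to -0.82. For Agt the sign turned, from -2.94 without water replicate 3 to 0.19 without water replicate 1, which is also the comparison within slide 2. None of the 7 was called by limma whichever single array was left out, and the lowest adjusted p was 0.0578 for Slco1a1 without water replicate 3.

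The mean over the 7 genes put the pattern in 1 value per array, 3.74, 1.12 and -1.29 in water and -0.59, -3.00 and -1.01 in bromate. It ranged 32.7-fold among water rats and 5.34-fold among bromate rats, against a 6.59-fold difference between the groups (-2.72). Water replicate 3 lay below bromate replicates 1 and 3. Within slide 2, without water replicate 1, the difference was -1.44. The mean includes readings not well above background, of Slc22a7 on water replicate 3 and of Slco1a6, Slc22a7 and Apoh on bromate replicate 2. Over the 4 genes well above background on all 6 arrays, with all 6 arrays kept, the difference was -2.42.

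Slc7a13, Agt, Slco1a1 and Gclc were well above background on all 6 arrays, and each was also set against the mean of the other 3 on the same array. The result was centred on its own mean over the arrays, so that only differences between arrays were read. Slc7a13 stood at 0.97, 0.75 and 1.34 in water and -1.21, -1.46 and -0.40 in bromate on that scale. Its water arrays lay within 0.59 of each other, although its level ranged 33.6-fold on them, and the groups did not overlap, with a difference of -2.04.

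Agt stood at 0.12, -1.02 and -1.08 relative to the other 3 in water and at 1.21, -0.10 and 0.87 in bromate, a difference of 1.32 with overlap. Gclc differed by 0.83 and Slco1a1 by -0.10 on this scale, both with overlap. Setting each gene against the other 3 makes their differences cancel out, so that a negative value in a gene forces positive values elsewhere. The positive values of Agt and Gclc therefore do not show a rise, and both had lower bromate means than water means. These relative differences come from the arrays on which the genes were chosen, so they were not tested.

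The closeness of a gene to the other 6 was measured as the root mean square distance between both profiles over the 6 arrays, each centred on its own mean. Slc22a7 (0.60), Slco1a1 (0.63) and Gclc (0.70) lay nearest to the others. Slc7a13 followed at 0.77, Agt at 0.89 and Apoh at 0.95. Slco1a6 lay farthest, at 1.32, a value that rests in part on bromate replicate 2, where it was not well above background.

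By the same distance to the mean of the 7 genes, the 10 nearest of 10674 other named genes on all 6 arrays lay between 0.25 and 0.73, against a median of 2.13 over those genes. Only 22 of them (0.206%) lay within 1. Tff3, a secreted trefoil peptide of epithelia, was nearest and read 7.78, 4.78 and 2.14 in water and 3.46, 1.04 and 2.56 in bromate. Water replicate 3 lay below bromate replicates 1 and 3, as in Slco1a1, Slc22a7, Gclc and Agt. Gucy1b2, a guanylate cyclase subunit, followed at a distance of 0.42 and Akr1c12l1, an aldo-keto reductase, at 0.49. Akr1c12l1 read 3.59, 1.63 and -0.05 in water and -0.62, -2.32 and -0.97 in bromate, with no overlap.

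Slco1a3, the organic anion carrier between Slco1a1 and Slco1a6 on the chromosome, was 0.53 from the mean of the 7 genes. Cyp2c24, a cytochrome P450, lay at 0.57 (water 3.51, 1.15 and -0.77) and Dhrs7l1, a short-chain dehydrogenase, at 0.63 (water 4.08, 1.82 and -0.71). Then came Tnfrsf11b, the decoy receptor osteoprotegerin, at 0.68, the asparaginase Aspg at 0.70, Mme, the brush border peptidase neprilysin, at 0.73 and Sspo at 0.73. All 10 had the water order 1 over 2 over 3, 9 had bromate replicate 2 lowest of the bromate arrays, and their water ranges ran from 3.44 to 5.65. Differences between the groups ran from -3.32 (Dhrs7l1) to -1.55 (Aspg), 2 of the 10 did not overlap and limma called 0 of 10. The lowest adjusted p among them was 0.0891, for Akr1c12l1, and likeness of a profile does not show a shared function or control. Because the 10 were chosen for closeness to the mean of the 7 genes on these arrays, their order, ranges, differences and calls describe the choice.

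**Figure D4:**
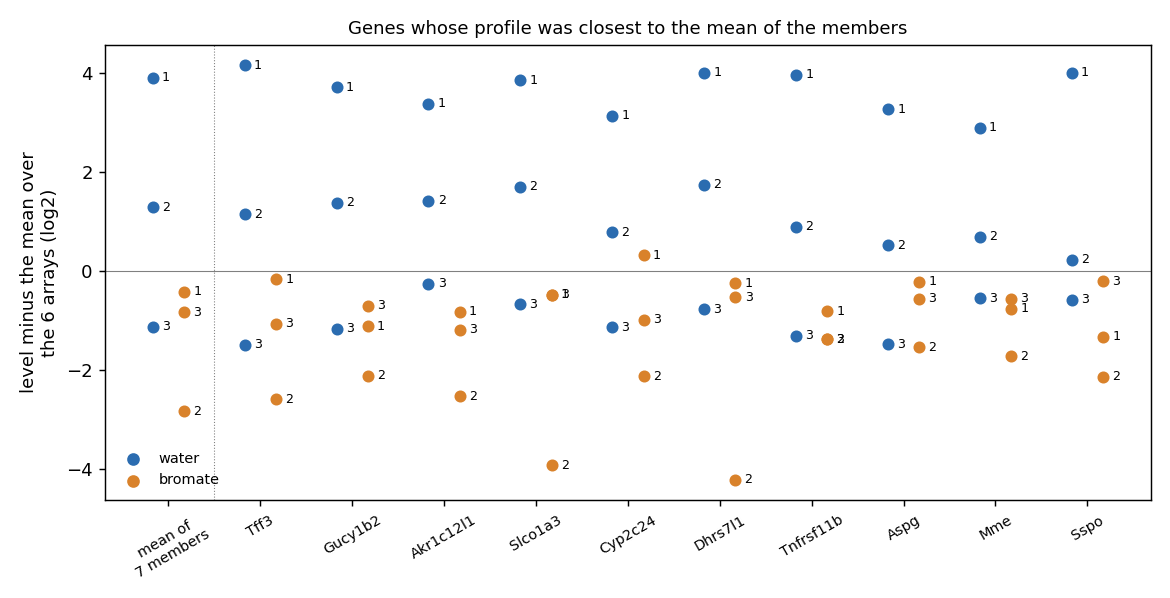
Log2 level minus the gene's own mean over the 6 arrays (vertical axis) for the mean of the 7 genes and for the 10 genes nearest to it, with replicate numbers beside the points. By the way they were chosen, all 10 show water replicate 1 highest, then replicates 2 and 3, and their water ranges run from 3.44 to 5.65.

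Other genes of the straight tubule did not share the size of the pattern. The 7 genes were chosen for that size, so this contrast describes the choice. None of 13 other straight tubule genes was called by limma, against 14.5% of all genes. Of these 13, 9 had the water order 1 over 2 over 3, and 1 varied at least 4-fold among the water rats, against 1.75% of all genes. Their mean per array was 4.06, 3.55 and 3.34 in water and 3.20, 3.03 and 3.31 in bromate, with a median difference of -0.43 and a median water range of 0.58. That 1 gene was Slc22a24, reached through the older name Slc22a19 and named after its values were seen, which read 2.88, 0.60 and -0.64 in water and -0.11, -0.80 and -0.03 in bromate. The brightest, Napsa, an aspartic protease, read 8.05, 7.94 and 8.09 in water and 7.91, 7.79 and 7.91 in bromate (-0.16 ± 0.09). Slc3a1, the partner of Slc7a13 and also named after its values were seen, read 8.52, 7.83 and 7.58 in water and 7.41, 7.17 and 7.44 in bromate. Most straight tubule genes thus had the order of the 7 genes in water, against 18.2% of all genes. The order was not particular to them. It was found in 4 of 7 thick ascending limb, 6 of 10 tubule injury and 3 of 5 androgen-related genes, and in 1 of 8 medulla and collecting duct genes.

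Of 12 genes of the convoluted tubule measured, 1 had the water order 1 over 2 over 3 and 6 had the reverse, which 21.7% of all genes had, with means of 5.30, 5.44 and 5.59 in water and 5.25, 5.28 and 5.25 in bromate. Limma called 1 higher and 4 lower in bromate, with a median difference of -0.37. The glucose carriers split: Slc2a2 (GLUT2) rose by 1.16 ± 0.13 (limma adjusted p = 0.00679) and Slc5a2 (SGLT2) fell by 0.92 ± 0.12 (limma adjusted p = 0.0112). The endocytic receptor Lrp2 (megalin) fell by 0.90 ± 0.09 (limma adjusted p = 0.00496). These 3 kept their calls whichever single array was left out.

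Of 7 thick ascending limb genes, 1 rose and 4 fell, with means of 3.00, 2.74 and 2.46 in water and 1.35, 1.07 and 1.33 in bromate. Egf fell by 5.09 ± 0.14 (limma adjusted p = 0.000182) and the potassium channel Kcnj1 by 1.46 ± 0.09 (limma adjusted p = 0.00125). Umod, uromodulin, fell by 2.50 ± 0.39 (limma adjusted p = 0.0155), a call lost without water replicate 2, bromate replicate 2 or bromate replicate 3 (adjusted p up to 0.0625). Of 8 medulla and collecting duct genes 1 fell, the vasopressin receptor Avpr2, by 1.18 ± 0.11 (limma adjusted p = 0.00446). Their means ran 1.76, 1.98 and 2.17 in water, the reverse of the 7 varying genes. The part of segment shares in the spread of the 7 genes was not tested.

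**Figure D5:**
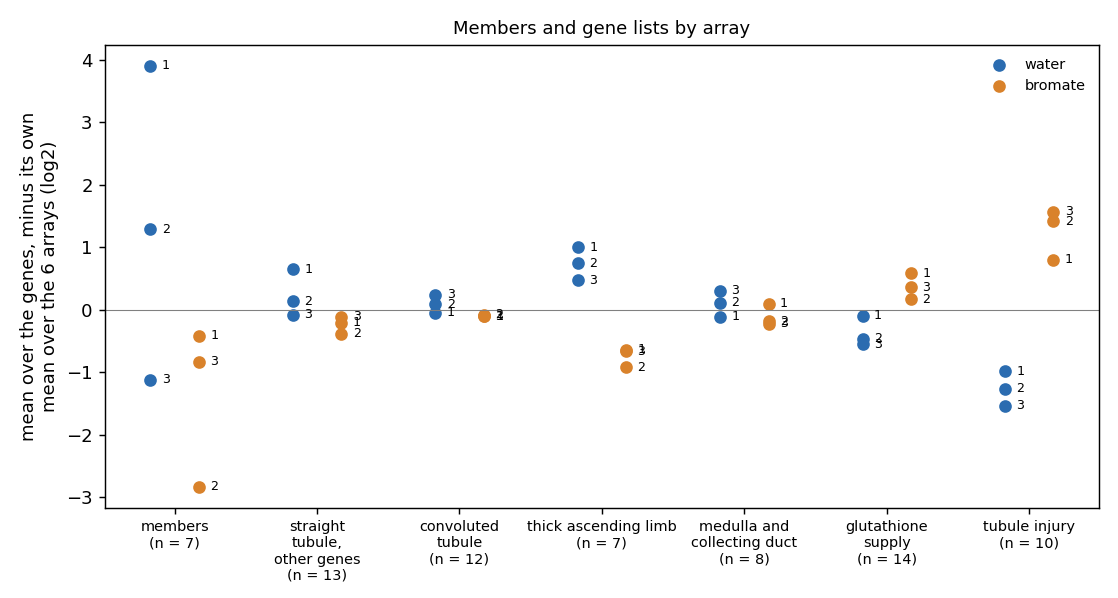
Mean log2 level over each group of genes minus its own mean over the 6 arrays (vertical axis), by array, with replicate numbers beside the points and n the genes measured. The 7 varying genes, chosen for their spread, range over about 5 units among the water arrays. Each of the other 6 groups plotted stays within about 1 unit among them.

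The genes that share a pathway with single members were measured too. For Gclc, 14 genes of glutathione supply and the oxidative stress response were tested, of which 5 rose and 1 fell. Gpx2, a glutathione peroxidase, rose by 2.58 ± 0.17 (limma adjusted p = 0.00171), Srxn1, sulfiredoxin, by 2.17 ± 0.17 (limma adjusted p = 0.00259) and Hmox1, haem oxygenase 1, by 2.12 ± 0.24 (limma adjusted p = 0.00701). Gclc itself had a negative difference that was not called. Gss, the next enzyme after Gclc and named after its values were seen, read 4.70, 3.20 and 2.67 in water and 3.14, 2.88 and 3.06 in bromate. Its water order was 1 over 2 over 3, which 4 of the 14 genes had, against 18.2% of all genes. Gclm, the modifier subunit that pairs with Gclc, was well above background on only 2 arrays and was not tested.

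For Agt, genes of the angiotensin system were measured. The angiotensin receptor Agtr1a fell by 0.70 ± 0.15 (limma adjusted p = 0.0348), and on leaving out single arrays it kept its call only without water replicate 1.

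For the carriers, 1 of 11 other organic anion carriers rose and 3 fell, among them Slco1a4, which was not well above background in bromate. Slco4a1 rose by 1.82 ± 0.19 (limma adjusted p = 0.00563). Slco2a1, a prostaglandin carrier, fell by 1.24 ± 0.22 (limma adjusted p = 0.0220), a call kept only without water replicate 1 or bromate replicate 3. Of 9 amino acid carriers of the SLC7 and SLC3 families 1 rose, Slc7a6, by 0.68 ± 0.15 (limma adjusted p = 0.0368), and its call was lost whichever single array was left out.

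Among factors that set proximal tubule identity, Hnf4a fell by 0.70 ± 0.09 (limma adjusted p = 0.0105). Of 5 androgen-related tubule genes 2 fell. Kap, the kidney androgen-regulated protein, fell by 1.61 ± 0.27 (limma adjusted p = 0.0185), from 9.31, 8.70 and 8.57 in water to 7.45, 6.80 and 7.48 in bromate, and its call was lost without water replicate 2 or bromate replicate 2. Cyp4b1 fell by 0.60 ± 0.13 (limma adjusted p = 0.0357), a call kept only without bromate replicate 3. Kap had the water order 1 over 2 over 3 and bromate replicate 2 lowest. The part of hormone state in that order was not tested.

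Markers of neighbouring organs were set beside the 7 genes, since Agt and Apoh are also made by liver cells. Of 16 liver markers 7 were measured, with 1 higher (Apob, 1.29 ± 0.15, limma adjusted p = 0.00742) and 1 lower (Ahsg, -0.71 ± 0.17, limma adjusted p = 0.0453, kept only without water replicate 1). The log2 of the signal summed over all 16 was 5.08, 4.08 and 3.79 in water and 4.86, 3.96 and 4.48 in bromate. This sum, in which the brightest genes weigh most, had the water order 1 over 2 over 3 and bromate replicate 2 lowest of the bromate arrays. Gene by gene, 3 of the 7 measured liver markers had that water order, against 18.2% of all genes, and 1 had the reverse. Bromate replicate 2 was lowest of the bromate arrays in 4 of 7, against 34.8% of all genes. Alb, albumin, was well above background on water replicates 1 and 3 alone, and Cps1, Tdo2, Tat, Cyp3a2 and Apoa2 on no array. Cyp2c11, a male-specific cytochrome P450 of the liver named after its values were seen, read 3.31, -2.37 and -3.56 in water and -3.97, -5.72 and -5.36 in bromate, where replicates 2 and 3 were not well above background. F2, prothrombin, named likewise, read 2.70, 0.68 and -0.78 in water and 2.89, 0.91 and 1.34 in bromate, so that bromate replicate 1 was as high as water replicate 1.

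Of 7 adrenal markers 3 were measured and none of 3 was called by limma, and the defining Cyp11b1, Cyp11b2 and Mc2r were well above background on no array. The log2 of the signal summed over the 7 was -0.37, -0.96 and -1.25 in water and -1.07, -0.66 and -0.96 in bromate. Of 5 named fat cell markers 3 were measured with no limma call. The log2 of the signal summed over the 5 was 1.61, 0.15 and 0.11 in water and -0.02, -0.31 and 0.03 in bromate, highest on water replicate 1. Cidec, named after its values were seen, read 1.06, -1.40 and -3.96 in water, whereas Adipoq, adiponectin, a defining fat gene, read -0.36, -0.78 and -0.35, and Lep was well above background on water replicate 3 alone. The part of fat or liver RNA in the spread of the 7 genes was not tested.

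How the pattern of the 7 genes bears on the comparison was then asked of all other genes, by adding the mean of the 7 genes on each array to the limma model as a covariate. The number of genes called fell from 3979 (14.5%) to 1051 (3.82% of 27499), with 546 higher and 505 lower in bromate. Of the genes called with the covariate, 966 were called in the same direction without it, which is 91.9% of the 1051 and 24.3% of the 3979. The covariate differed between the groups, which alone widened the error of the group difference 1.30-fold, and it cost 1 of 4 residual degrees of freedom. The median SE went from 0.131 to 0.159, so a lost call does not show that a gene followed the pattern.

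The slope on the mean of the 7 genes was itself called for 9 entries other than those 7 symbols. Of these, 8 moved with the mean and 1 against it, and 2256 entries had an unadjusted p under 0.05 for it in limma. The only ones of the 9 with a symbol were Tff3 and Akr1c12l1. The rest had no symbol and can be further probes of the 7 genes. Among them, 1 read 8.15, 6.13 and 3.91 in water and 4.88, 3.26 and 4.58 in bromate, close to Gclc on every array. The count with the covariate rested on single arrays: it was 284 without water replicate 1, 30 without water replicate 2 and 0 without water replicate 3, where 3023 genes had an unadjusted limma p under 0.05. It was 312, 286 and 156 without bromate replicates 1, 2 and 3. Without the covariate the count of calls ran from 1124 without water replicate 2 to 3330 without water replicate 1.

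The tubule injury genes kept their calls beside the covariate, 5 of 10 higher with it and without it. The thick ascending limb kept 1 higher and 4 lower. The convoluted tubule went from 4 lower to 2, and glutathione supply from 5 higher and 1 lower to 4 higher and none lower in limma. Other straight tubule genes had none called in either model.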

How the data were processed

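Renal cortex RNA of 6 rats, 3 per group, was measured on Agilent single-colour arrays. Scans were quantified in Agilent Feature Extraction 10.7, according to the submitters' processing notes. The deposited processed signal is a background-corrected intensity, per the file headers, which also name build rn4. The value table deposited by the authors holds a linear ratio, which matched the processed signal over each array's 75th percentile, with 0.640% to 0.807% as the worst deviation. Its scale and centring are not given in the sources used here. Its column medians were 0.1043, 0.1049 and 0.103 in water and 0.1025, 0.1054 and 0.1026 in bromate.

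Here the log2 processed signal minus the log2 75th percentile of each array was used, without control spots (1439) and outlier spots. Probes were named by transcript accession in RefSeq, and 28206 had 1 symbol, 33331 none and 0 several. Probes had to be well above background on 3 or more of 6 arrays (37783 were), and the probe brightest over all 6 arrays stood for a gene or accession. limma 3.58.1 (lmFit and eBayes, R 4.3.3) gave differences, SEs and p-values adjusted by Benjamini-Hochberg over 27506 genes. The fits were tested on simulated data.

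The 7 genes and the 14 lists were chosen with earlier results of these data known. Named are all 7, up to 3 called genes per list with the largest change or else its brightest, and the 10 nearest profiles. Replicate numbers did not pair the rats. Some genes of the lists are not reported here. Array number limits the precision. Alternatives covered scaling, background correction, the value table, filters, probe rule, variance model, array weights, slide, replicate block and each array left out.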

Additional observations from a re-analysis of the deposited data

How the results depend on the processing

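None of the 7 genes was called by limma in any setting run. Their differences kept their direction in all settings but 1 pair: Agt was 0.19 with the slide as a block and without water replicate 1, which are the same comparison, and ran from -2.94 to 0.19 on leaving out each array. The mean difference over the 7 genes was -2.72 in the reported setting, -1.44 with the slide as a block, and -3.96 to -1.44 on leaving out each array. With normexp and quantile scaling, Slco1a6 was -3.15, Slc22a7 -1.14 and Apoh -1.21, and Slc7a13, at -3.86, differed most. With array weights Agt was -0.77 and Slc22a7 -1.32. The count of genes changed was 3979, 1444 with no filter on dim probes, 1120 with the replicate block and 1124 to 3330 on leaving out each array. With the mean of the 7 genes as a covariate it was 1051, against 2221 with normexp and quantile scaling, 72 with no filter, 1681 with probes above background on all 6 arrays, 1843 with intensity trend and robust variance, 1750 with array weights, 284 with the slide as a block, 0 with the replicate block (3215 at an unadjusted limma p under 0.05) and 0 to 312 on leaving out each array. The causes were not tested. Same-numbered rats correlated at 0.05, 0.07 and -0.10 in their deviations from the group means, and not every sample correlated best with its own number, so the numbers were not taken as pairs. Of 34 list genes called, 19 kept their calls whichever single array was left out. Slco1a6, Slc22a7 and Apoh lay near background on 1 or 2 arrays, which limits their lowest values.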
